A study of Mus musculus with 2 samples.

Results

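MHC class II low macrophages of the RAD21L KO testis made up 344 of the 6409 KO cell barcodes with at least 500 detected genes (5.37%, exact Clopper-Pearson 95% interval 4.83 to 5.95%), and 344 of the 11816 such barcodes in the whole series. A barcode was a member when C1qa, C1qb, C1qc, Pf4, F13a1 and Csf1r together gave at least 0.3% of its UMIs (unique molecular identifiers, each standing for 1 captured transcript) and at least 5 UMIs, and when Cd74, H2-Aa, H2-Ab1 and H2-Eb1 together gave less than 1%. Members were set beside the other 6065 KO barcodes and, as the most similar cells, beside 95 KO barcodes that met the macrophage condition but held 1% or more MHC class II UMIs, called MHC class II high myeloid barcodes below. Those 95 are counted among the 6065, so levels in the other KO barcodes include their UMIs. The members were picked by their transcripts, so each comparison of their gene levels with other barcodes is a description.

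The interstitium of the mouse testis holds many resident macrophages that lie against Leydig cells, the steroid producing cells, and another macrophage population lies on the tubule wall near the spermatogonia. The interstitial cells are known for CD206 (encoded by Mrc1), for the CSF1 receptor and for little MHC class II, the complex that shows peptides to helper T cells. They depend on CSF1 from neighbouring cells, and macrophages in general are known to clear dead cells and to recycle iron and lipids.

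The tissue was whole testis of 55-day-old Rad21l-/- mice (RAD21L KO) and Rad21l+/+ mice (WT), dissociated and sequenced cell by cell in droplets, with 1 library per genotype. RAD21L is a cohesin subunit of meiotic germ cells. How many mice went into each library, and how the Rad21l allele was made, is not given in the sources used here. With 1 library per genotype no difference could be tested against a spread between animals, and every interval printed covers counting error only.

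The KO library held 28001992 UMIs in 7118 barcodes and the WT library 33096309 UMIs in 5415 barcodes. Rad21l stood at 14.6 CPM (the UMIs of a gene scaled to a total of 1000000; 11.5 to 18.4) in 833 KO barcodes with at least 3 UMIs of the early meiotic genes Stra8, Prdm9 and Dmc1, against 66.1 CPM (49.1 to 87.2) in 111 such WT barcodes, a check chosen after the values were seen. Counted in every barcode, Rad21l gave 3.96 CPM in KO and 2.48 CPM in WT. Which part of the gene was deleted is not given in the sources used here, so tags outside that part can remain. Of the barcode names, 14 occurred in both libraries and 2 of these belonged to members. Members had a median of 2712.5 UMIs (731 to 12291) and 1514.5 genes, MHC class II high barcodes had a median of 1910 UMIs, and the other KO barcodes had a median of 3598 UMIs. Mitochondrial UMIs had a median share of 2.33% in members and 2.52% in the other KO barcodes. KO barcodes outside the myeloid groups were given to a class when the markers of that class were at least 2 times their share in the library with at least 5 UMIs. This gave 667 Leydig, 1496 Sertoli, 759 stromal, 125 myoid, 43 endothelial and 1223 early germ cell class barcodes and left 1657 unassigned.

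The 6 macrophage genes took a median of 1.64% of the UMIs of a member (0.304 to 3.06%), beside 0.906% in MHC class II high barcodes and 0.00331% of the summed UMIs of the KO barcodes outside both groups. The lowest member had 31 such UMIs, or 0.304%, and the highest barcode outside with at least 5 UMIs had 17, or 0.279%. Only 16 barcodes lay between 0.2 and 0.3%, and 6 members lay between 0.3 and 0.4%. A further 8 barcodes passed 0.3% with fewer than 5 UMIs and stayed outside. On the MHC class II side, 196 members had no UMI of the 4 genes, the member nearest the limit had 0.972%, and the lowest MHC class II high barcode had 1.06%. Between 0.5 and 1% lay 14 members, between 1 and 2% lay 14 MHC class II high barcodes, and 81 of those held 2% or more.

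**Figure D1:**
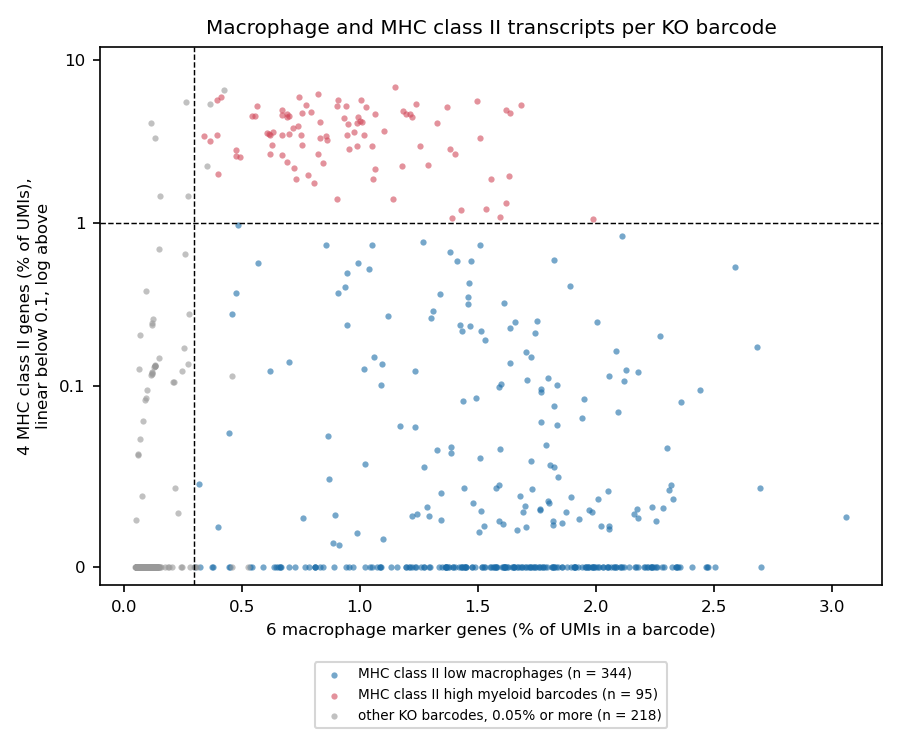
Each point is a KO barcode, with its share of UMIs from the 6 macrophage genes on the x axis (%) and from the 4 MHC class II genes on the y axis (%, linear below 0.1 and logarithmic above); the dashed lines are the limits of 0.3% and 1%, and barcodes under 0.05% on the x axis are not drawn. The 344 members fill the area below 1% with 196 of them at 0, the 95 MHC class II high barcodes lie mostly above 2%, and the grey points right of 0.3% are barcodes with fewer than 5 macrophage UMIs.

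Markers the rule did not use were set beside the label. Members were picked by macrophage genes, and the lists were chosen with earlier results of these data known, so this is a description. Of the 17 genes on a list of core macrophage identity, all were compared and 15 were at least 4-fold higher in members than in the other KO barcodes, where 8.31% of all 9054 genes compared were. Over MHC class II high barcodes the median log2 ratio of this list was 0.099, so it describes both myeloid groups. Tyrobp, a signalling adaptor, had 1435 CPM in members (1361 to 1512) and 15.5 CPM in the other KO barcodes. Lyz2, which encodes lysozyme, had 1783 CPM in members and 8.13 CPM in the others. Adgre1, which encodes the F4/80 antigen, had 364 CPM in members and 2.82 CPM in the others. Cd68 had 649.6 CPM in members and 6.40 CPM in the others. The 2 genes under the 4-fold mark, both still higher in members, were the dead cell receptor gene Mertk at a log2 ratio of 1.64 and Mpeg1, a pore-forming protein of phagocytes, at 1.71.

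Most markers of other blood cells had no UMI in members. Of 8 lymphocyte markers 7 had none (Cd3e, Cd3d, Cd3g, Trac, Nkg7, Cd79a and Ms4a1), and Cd79b had 8 UMIs. Among monocyte markers, Ly6c2 and Chil3 had none. Of 5 dendritic cell markers Flt3, Xcr1, Clec9a and Cd209a had none, and Zbtb46 had 8 UMIs. Of 5 mast cell markers Cpa3, Mcpt4, Cma1 and Tpsb2 had none, and Kit had 28 UMIs. Of 5 neutrophil markers S100a9, Retnlg and Ly6g had none and S100a8 had 1 UMI, but Csf3r, the receptor for the growth factor G-CSF, had 33 UMIs in 30 members (33.4 CPM), against 30.9 CPM in MHC class II high barcodes and 0.414 CPM in the other KO barcodes. The neutrophil set took 0.00344% of UMIs in members and 4.515e-05% in the other KO barcodes, with nearly all of its member UMIs from Csf3r.

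PU.1, encoded by Spi1, is the factor that macrophages need to form, and Spi1 itself had 277 CPM in members (245 to 312) and 3.01 CPM in the other KO barcodes. The 250 bases upstream of the start of member genes were therefore searched on both strands for a PU.1 motif (AGGAAGT), a MAF motif (TGCTGA) and an AP-1 motif (TGACTCA); the last 2 can overlap by their shared letters TGA. Sequences are RefSeq's on GRCm38.p6, while the counts were made on GRCm39, so the coordinates below belong to GRCm38.p6 alone. Of the 25 genes with the largest ratio over other KO barcodes 21 had an entry, and the PU.1 motif was in 7 of these (33.3%), the MAF motif in 8 (38.1%) and the AP-1 motif in 2 (9.52%). Among all 27025 genes with an entry the shares were 8.80% for PU.1, 18.0% for MAF and 5.16% for AP-1. Of the 6 macrophage genes of the rule, 4 had an entry (C1qb, C1qc, Pf4 and F13a1) and all 4 held the PU.1 motif. Of the 19 listed genes of resident CD206 macrophages 16 had an entry, and 5 of these (31.2%) held it, Mrc1 among them, whereas Cd163, Stab1, Cbr2 and Timd4 did not. The windows of the 4 rule genes and of Mrc1 are shown because they hold the PU.1 motif, and those of Stab1 and Cd163 as resident genes without it, with motifs in capitals (ACTTCCT is AGGAAGT on the other strand). C1qb lies at chr4:136886201-136886450 and C1qc at chr4:136892915-136893164, both on the minus strand. Pf4 lies at chr5:90772185-90772434 and Mrc1 at chr2:14229164-14229413, both on the plus strand. The F13a1 window, 1 of 2 entries for that gene and the only one of them with a match, lies at chr13:37049214-37049463 on the minus strand. Stab1 lies at chr14:31168642-31168891 on the minus strand and Cd163 at chr6:124304401-124304650 on the plus strand.
C1qb: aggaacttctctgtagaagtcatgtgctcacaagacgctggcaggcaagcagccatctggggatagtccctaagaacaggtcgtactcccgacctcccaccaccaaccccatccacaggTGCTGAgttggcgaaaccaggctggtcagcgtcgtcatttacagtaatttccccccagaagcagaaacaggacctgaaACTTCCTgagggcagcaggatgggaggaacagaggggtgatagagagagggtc
C1qc: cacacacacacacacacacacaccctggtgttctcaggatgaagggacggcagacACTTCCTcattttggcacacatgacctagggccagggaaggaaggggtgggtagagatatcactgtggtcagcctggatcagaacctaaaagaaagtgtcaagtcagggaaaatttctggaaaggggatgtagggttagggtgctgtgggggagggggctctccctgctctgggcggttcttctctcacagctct
Pf4: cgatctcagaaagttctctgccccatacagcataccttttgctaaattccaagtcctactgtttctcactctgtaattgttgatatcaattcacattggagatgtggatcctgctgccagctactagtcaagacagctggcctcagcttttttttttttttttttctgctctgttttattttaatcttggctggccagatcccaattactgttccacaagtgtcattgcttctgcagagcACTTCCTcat
F13a1: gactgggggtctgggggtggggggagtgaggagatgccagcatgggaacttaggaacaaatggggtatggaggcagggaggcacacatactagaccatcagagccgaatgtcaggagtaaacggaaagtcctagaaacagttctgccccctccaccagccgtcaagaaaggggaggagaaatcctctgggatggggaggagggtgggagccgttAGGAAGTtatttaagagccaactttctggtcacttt
Mrc1: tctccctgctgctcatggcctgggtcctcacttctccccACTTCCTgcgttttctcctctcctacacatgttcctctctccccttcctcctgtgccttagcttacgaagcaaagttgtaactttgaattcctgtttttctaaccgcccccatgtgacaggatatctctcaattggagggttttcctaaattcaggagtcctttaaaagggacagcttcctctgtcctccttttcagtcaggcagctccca
Stab1: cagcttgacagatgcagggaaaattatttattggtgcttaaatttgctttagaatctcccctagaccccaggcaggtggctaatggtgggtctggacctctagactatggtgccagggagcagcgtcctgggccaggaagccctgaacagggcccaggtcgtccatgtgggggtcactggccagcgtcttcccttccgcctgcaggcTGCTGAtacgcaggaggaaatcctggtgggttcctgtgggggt
Cd163: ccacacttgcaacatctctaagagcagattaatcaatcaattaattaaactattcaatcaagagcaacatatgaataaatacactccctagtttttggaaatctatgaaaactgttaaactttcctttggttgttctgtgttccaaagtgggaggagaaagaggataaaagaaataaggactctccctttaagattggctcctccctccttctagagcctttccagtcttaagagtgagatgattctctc
The PU.1 motif stood on the opposite strand in C1qb, C1qc, Pf4 and Mrc1 and on the strand shown in F13a1, and C1qb and Stab1 held a MAF motif. A match of letters describes the sequence and does not show binding.

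Apoe, which encodes the lipoprotein apolipoprotein E, took the largest share of member UMIs of any named gene. It made up a median of 2.26% of the UMIs of a member, between 0 and 6.76%, and 334 members had it. Summed over barcodes it gave 2.23% of UMIs in members, 0.411% in MHC class II high barcodes and 0.0987% in all other KO barcodes. The other leading genes were Malat1, Tmsb4x, Actb, the ferritin genes Ftl1 and Fth1, the protease inhibitor gene Cst3, the selenium carrier gene Selenop, Jun and C1qa. The 20 leading genes together took 12.2% of member UMIs. Selenop had 4384 CPM in members (4254 to 4516), against 345 CPM in the other KO barcodes, and Ftl1 had 6125 CPM in members, against 991 CPM.

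The C1q genes encode the 3 chains of C1q, a part of the first complement component, and in members they were captured in nearly equal parts. C1qa gave 37.7%, C1qb 32.7% and C1qc 29.7% of their summed UMIs in members, and the MHC class II high barcodes had 37.9%, 32.4% and 29.7%. All 3 were used by the rule. Of all genes compared with the other KO barcodes, 8.31% were at least 4-fold higher in members and 6.77% at least 4-fold lower. Of the 16 complement genes listed 14 were compared. Of these 10 were at least 4-fold higher in members, the 3 C1q genes among them, and 1 was at least 4-fold lower. C3ar1, the receptor of the C3a fragment, had 431 CPM in members and 3.91 CPM in the others. C3, the central component, was the one that was lower, with 14.2 CPM in members (7.75 to 23.8), and it stood at 334 CPM in Leydig class and 221 CPM in stromal class barcodes. Members were chosen partly by the C1q genes, which took 0.986% of UMIs in members and 0.824% in MHC class II high barcodes. C3 was highest in Leydig and stromal class barcodes.

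The 25 genes with the largest ratio over the other KO barcodes were mixed in function, and F13a1, Pf4 and Csf1r among them were used by the rule. Ccl24, a chemokine that draws eosinophils, had 206 UMIs in members (208 CPM) and 10 UMIs in all 6065 other barcodes (0.376 CPM), a log2 ratio of 9.11. The RNA sensor genes Tlr13, Tlr8 and Tlr7 had log2 ratios of 8.95, 8.87 and 8.14. Timd4, a receptor for phosphatidylserine on dead cells, had a log2 ratio of 8.56. Alox5, which makes leukotriene precursors, had 8.38. The scavenger receptor genes Stab1 and Cd163 had 8.14 and 8.05, and Folr2, the folate receptor of tissue macrophages, had 8.27. The remaining genes among the 25 largest were F13a1, Fcrls, Vsig4, Ms4a7, Cbr2, Pf4, Ms4a6d, Trem2, P2ry12, Cd209g, Lyz2, Ccl8, Ms4a6c, Ms4a4a, Cmah and Csf1r, with ratios between 8.53 and 7.62. Across all 9054 genes compared the median log2 ratio was -0.50, and 6.77% were at least 4-fold lower in members.

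**Figure D2:**
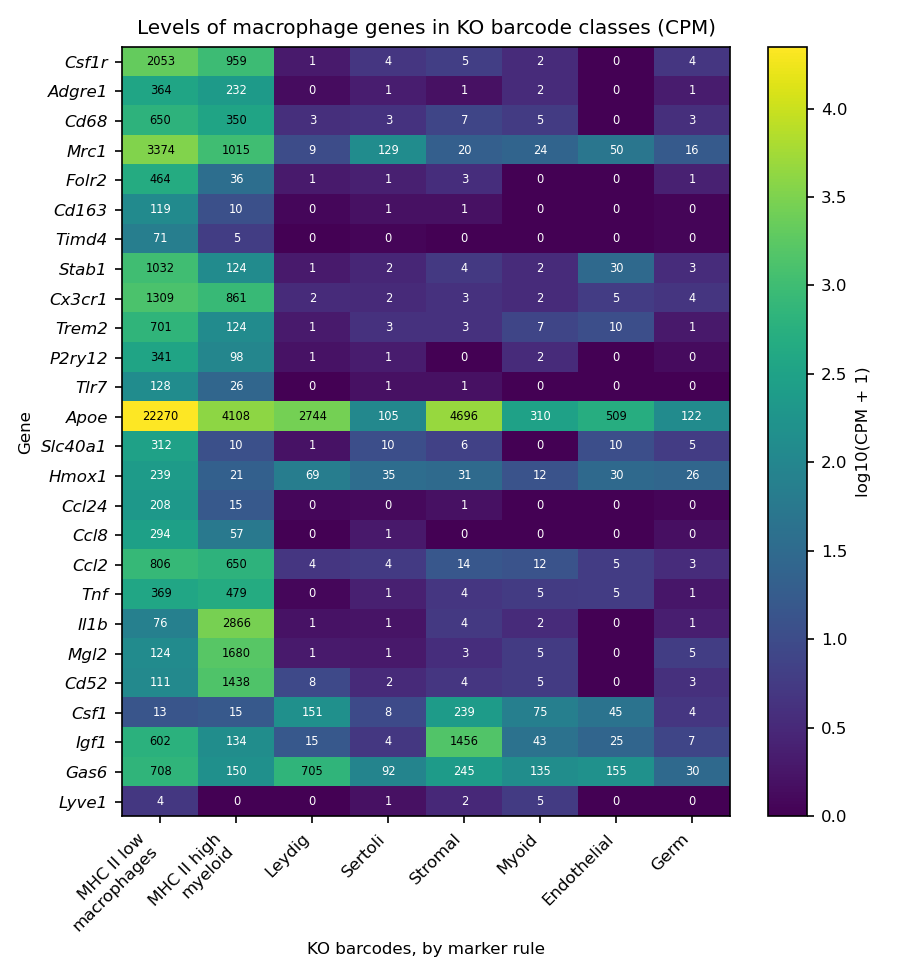
Each cell gives the level of a gene (rows) in a KO barcode class (columns) in CPM, with color on a log10(CPM + 1) scale; classes other than the first 2 were set by marker rules. Members in the first column stand above every other class for Mrc1, Folr2, Stab1, Trem2 and Apoe, whereas Il1b, Mgl2 and Cd52 peak in the MHC class II high barcodes and Csf1 in stromal and Leydig barcodes.

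Of the 27 lists, that of resident CD206 macrophage genes had the highest median log2 ratio over MHC class II high barcodes, and the MHC class II pathway list, which holds the 4 MHC class II genes of the rule, had the lowest. Of the 19 resident genes 12 passed the minimum of UMIs, and these were at least 2-fold higher in members, where 10.6% of the 3487 genes compared were; their median log2 ratio was 3.01 beside 0.13 for all genes. The minimum applied to both groups together, so a gene could pass it through members alone, and Cd163 passed with 2 UMIs in MHC class II high barcodes, Fcrls with 6 and Folr2 with 7; the count and median are therefore a description. Mrc1 had 3374 CPM in members (3260 to 3490), against 1015 CPM in MHC class II high barcodes. It took a median of 0.329% of the UMIs of a member (0 to 0.965%). After thinning each barcode to 1500 UMIs, Mrc1 was found in 278 of 289 members (96.2%), 46 of 77 MHC class II high barcodes (59.7%), 15.4% of Sertoli class and 1.72% of Leydig class barcodes. Leydig cells should lack the gene, and the source of its UMIs in Leydig and Sertoli class barcodes was not tested. Leydig class barcodes had a median depth of 7422 UMIs before thinning. Of all Mrc1 UMIs in the KO library 66.3% lay in members. Unthinned, Mrc1 was found in 96.5% of members.

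Stab1, a scavenger receptor, had 1032 CPM in members and 124 CPM in MHC class II high barcodes. Folr2 had 464.5 CPM in members and 36.1 CPM in MHC class II high barcodes, a log2 ratio of 3.69 (2.63 to 5.01). Cbr2, a carbonyl reductase, had 1237 CPM in members and 149.5 CPM in MHC class II high barcodes. Fcrls, an Fc receptor-like gene, had 287 CPM in members and 30.9 CPM in MHC class II high barcodes. In each of these genes the intervals of the CPM values did not overlap. The share of all genes compared with such intervals is not given here. Folr2, Fcrls and Stab1 were among the 12 genes with the largest ratio over MHC class II high barcodes, so this is a description. Cd163, the receptor for haemoglobin bound to haptoglobin, had 118 UMIs in members and 2 UMIs in MHC class II high barcodes, a log2 ratio of 3.53 (1.65 to 6.60). Timd4 had 70 UMIs in members and 1 UMI in MHC class II high barcodes, a log2 ratio of 3.78 (1.26 to 9.10). Vsig4, a complement receptor, had 72 UMIs in members and 0 in MHC class II high barcodes, where a floor of 3 counts over the group puts it at least 4.71-fold higher in members.

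Not every member carried these genes at the captured depth. Timd4 was found in 14.2% of members, Vsig4 in 8.72% and Cd163 in 18.9%, whereas Folr2 was found in 52.9% and Cbr2 in 80.8%. Thinned to 1500 UMIs, Folr2 was found in 44.3% of members, 2.60% of MHC class II high barcodes and 0 of 639 Leydig class barcodes. Lyve1, a hyaluronan receptor of vessel-associated macrophages, had only 4 UMIs, in 0.872% of members, so this population was not characterised by it.

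Receptors for uptake were high as a group. Of 18 scavenger and lectin receptor genes 16 were compared with the other KO barcodes. Of these 12 were at least 4-fold higher in members, where 8.31% of all genes compared were, with a median log2 ratio of 6.22. Of all genes compared with MHC class II high barcodes, 10.6% were at least 2-fold higher in members and 5.02% at least 2-fold lower. Of the 16 listed genes compared with them, 9 were at least 2-fold higher and 2 were at least 2-fold lower. The lower ones were Clec7a, a receptor for fungal glucan, at 43.5 CPM in members and 119 CPM in MHC class II high barcodes, and Lgals3, a galectin gene, at 91.1 CPM in members and 206 CPM in MHC class II high barcodes. Colec12 had 425 CPM in members and 113 CPM in MHC class II high barcodes, and Lrp1 had 526 CPM in members and 211 CPM. Cd5l had no UMI in members.

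Among receptors and bridging proteins for dead cells, 5 of 15 genes compared were at least 4-fold higher in members than in the other KO barcodes, where 8.31% of all genes compared were, and the median log2 ratio of the list was 0.73. They were Timd4, Trem2, Havcr2, Rac2 and Cd300lf. Trem2, a lipid receptor, had 701 CPM in members (650 to 756), 124 CPM in MHC class II high barcodes and 3.01 CPM in the other KO barcodes. Mertk had 194 CPM in members, 41.2 CPM in MHC class II high barcodes and 62.3 CPM in the other KO barcodes. Its ligand gene Gas6 had 708 CPM in members, 149.5 CPM in MHC class II high barcodes and 705 CPM in Leydig class barcodes. Other genes on this list were shared with somatic cells, such as Mfge8, at 63.8 CPM in members and 174 CPM in the other KO barcodes. Stab2 had no UMI in members.

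Lysosomal genes followed, with 11 of 20 at least 4-fold higher in members than in the other KO barcodes and a median log2 ratio of 2.16. Of all genes compared 8.31% were at least 4-fold higher. Against MHC class II high barcodes 7 of 18 were at least 2-fold higher and none at least 2-fold lower. Of all genes compared 10.6% were higher and 5.02% lower by that much. Ctsd, an aspartic protease, had 1358 CPM in members and 211 CPM in MHC class II high barcodes. Grn, the progranulin gene, had 1534 CPM in members and 345 CPM in MHC class II high barcodes. Ctsb, a cysteine protease, had 2576 CPM in members and 665 CPM in MHC class II high barcodes. Ctss, the protease that trims the MHC class II chaperone, had 995 CPM in members (934 to 1059) and 1345 CPM in MHC class II high barcodes.

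Genes of iron and haem handling were higher in members than in MHC class II high barcodes in 5 of 10 genes compared at the 2-fold mark, with none lower by that much. Of all genes compared 10.6% were higher and 5.02% lower at that mark. Slc40a1, the iron exporter ferroportin, had 308 UMIs in members (312 CPM) and 2 UMIs in MHC class II high barcodes (10.3 CPM), a log2 ratio of 4.92 (3.05 to 7.97). Hmox1, which breaks down haem, had 239 CPM in members and 20.6 CPM in MHC class II high barcodes, a log2 ratio of 3.53 (2.16 to 5.42). Of the biliverdin reductases, which act after Hmox1, Blvrb had 407 CPM in members and 149.5 CPM in MHC class II high barcodes, whereas Blvra had 81.0 CPM in members and 51.5 CPM in MHC class II high barcodes, a log2 ratio of 0.65 (-0.30 to 1.77). Fth1 had 5562 CPM in members and 5124 CPM in MHC class II high barcodes, a log2 ratio of 0.12. Hpx and Hamp had no UMI in members. Slc40a1, Hmox1 and Blvrb were thus at least 2-fold higher in members, whereas Blvra and the ferritin heavy chain gene were not.

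Among 17 lipid genes compared with the other KO barcodes 8 were at least 4-fold higher in members, where 8.31% of all genes compared were. The median log2 ratio of the list was 1.64. Pltp, a phospholipid transfer protein, had 958 CPM in members, 237 CPM in MHC class II high barcodes and 16.6 CPM in the other KO barcodes. Dab2, an endocytic adaptor for lipoprotein receptors, had 1953 CPM in members and 510 CPM in MHC class II high barcodes. Abca1, a cholesterol exporter, had 709 CPM in members, 206 CPM in MHC class II high barcodes and 281.5 CPM in the other KO barcodes. Apoe transcripts were not particular to macrophages, with 4696 CPM in stromal and 2744 CPM in Leydig class barcodes.

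Chemokine genes split between the 2 myeloid groups. Against the other KO barcodes 12 of 15 were at least 4-fold higher in members and 1 was at least 4-fold lower (Cxcl12, at 12.1 CPM in members and 65.4 CPM in the others). Of all genes compared 8.31% were higher and 6.77% lower by that much. Against MHC class II high barcodes 4 of 13 were at least 2-fold higher and 7 at least 2-fold lower. Of all genes compared with these barcodes 10.6% were at least 2-fold higher and 5.02% at least 2-fold lower. Ccl24 had 208 CPM in members and 15.5 CPM in MHC class II high barcodes (3 UMIs), and Ccl8, which draws monocytes and T cells, had 294.5 CPM in members and 56.7 CPM in MHC class II high barcodes. Pf4, a gene of the rule, and Ccl6, with 51.6% of its 93 member UMIs in 1 member, were the other higher ones. Ccl4, an inflammatory chemokine gene, had 245 CPM in members (215 to 278) and 3711 CPM in MHC class II high barcodes. Cxcl2, a neutrophil attractant, had 563 CPM in members and 2335 CPM in MHC class II high barcodes. Ccl2, which draws monocytes, was close in both, with 806.5 CPM in members (752 to 864.5) and 649.5 CPM in MHC class II high barcodes. Cxcl13 had no UMI in members.

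Of the inflammatory cytokine and mediator genes, 5 of 8 compared were at least 4-fold higher in members than in the other KO barcodes, with a median log2 ratio of 2.62. Over all genes compared the share at least 4-fold higher was 8.31%. Against MHC class II high barcodes 10.6% of all genes compared were at least 2-fold higher and 5.02% at least 2-fold lower. Il1b had 75.9 CPM in members (59.7 to 95.1), 2866 CPM in MHC class II high barcodes and 24.1 CPM in the other KO barcodes, with a log2 ratio of -5.24 over MHC class II high barcodes. The level in the other KO barcodes includes the 556 Il1b UMIs of the MHC class II high barcodes. Il1b was found in 4.65% of members and 65.3% of MHC class II high barcodes, and in 4.15% and 63.6% after thinning. Tnf had 369 CPM in members (332 to 409), 479 CPM in MHC class II high barcodes and 5.12 CPM in the other KO barcodes, and 46.2% of members had it. Il6, Il12b, Nos2, Lif and Il23a had no UMI in members. Of 7 genes compared with MHC class II high barcodes 4 were at least 2-fold lower in members and none at least 2-fold higher, the others among the lower ones being Nfkbia, Tnfaip3 and Nlrp3, feedback inhibitors and an inflammasome sensor. On the list of anti-inflammatory and alternative activation genes, 12 of 14 compared were at least 4-fold higher in members than in the other KO barcodes, with a median log2 ratio of 4.72, and 5 of 11 were at least 2-fold higher and 1 lower than in MHC class II high barcodes. Mrc1, Cd163, Trem2, Selenop and Dab2 stand on this list too. Gpnmb, a glycoprotein gene of phagocytes, had 40 UMIs in members (40.5 CPM) and 0.263 CPM in the other KO barcodes. Socs3, a feedback inhibitor of cytokine signalling, was the one lower against MHC class II high barcodes, at 151 CPM in members and 567 CPM in MHC class II high barcodes. Arg1 had 11 UMIs, Retnla had 3 and Chil3 had none in members.

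Genes listed for recruited monocytes and MHC class II high macrophages were uneven. Ccr2, the receptor that brings monocytes out of the marrow, had 3 UMIs in members, Plac8 had 1 UMI, and Ly6c2, Chil3 and Napsa had none. Of the 6 genes on the list compared with the other KO barcodes 4 were at least 4-fold higher in members, with a median log2 ratio of 3.93, and they were Cx3cr1, Lgals3, S100a4 and S100a6. Of 6 compared with MHC class II high barcodes 3 were at least 2-fold lower in members (Cd72, Cd9 and Lgals3). Over all genes compared, 8.31% were at least 4-fold higher than in the other KO barcodes. The share at least 2-fold lower than in MHC class II high barcodes was 5.02%. S100a4, a calcium-binding protein gene, had 366 CPM in members (329.5 to 406), 304 CPM in MHC class II high barcodes and 14.5 CPM in the other KO barcodes. S100a6 of the same family had 246 CPM in members, 335 CPM in MHC class II high barcodes and 22.9 CPM in the other KO barcodes. Cx3cr1, the fractalkine receptor, was found in 81.7% of members and had 1309 CPM in members (1239 to 1383) and 861 CPM in MHC class II high barcodes. Its ligand gene Cx3cl1 had 3 UMIs in members and stood at 48.1 CPM in stromal and 32.8 CPM in Leydig class barcodes. Genes first described in microglia were high, with 12 of 13 at least 4-fold higher in members than in the other KO barcodes, beside 8.31% of all genes. P2ry12, a sensor of ADP, had 341 CPM in members and 97.9 CPM in MHC class II high barcodes, and Gpr34, a lysophospholipid receptor, had 333 CPM in members and 92.8 CPM. Sall1, a transcription factor of microglia, had no UMI in members, and Sparc was lower in members (782 CPM) than in the other KO barcodes (2217 CPM).

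**Figure D3:**
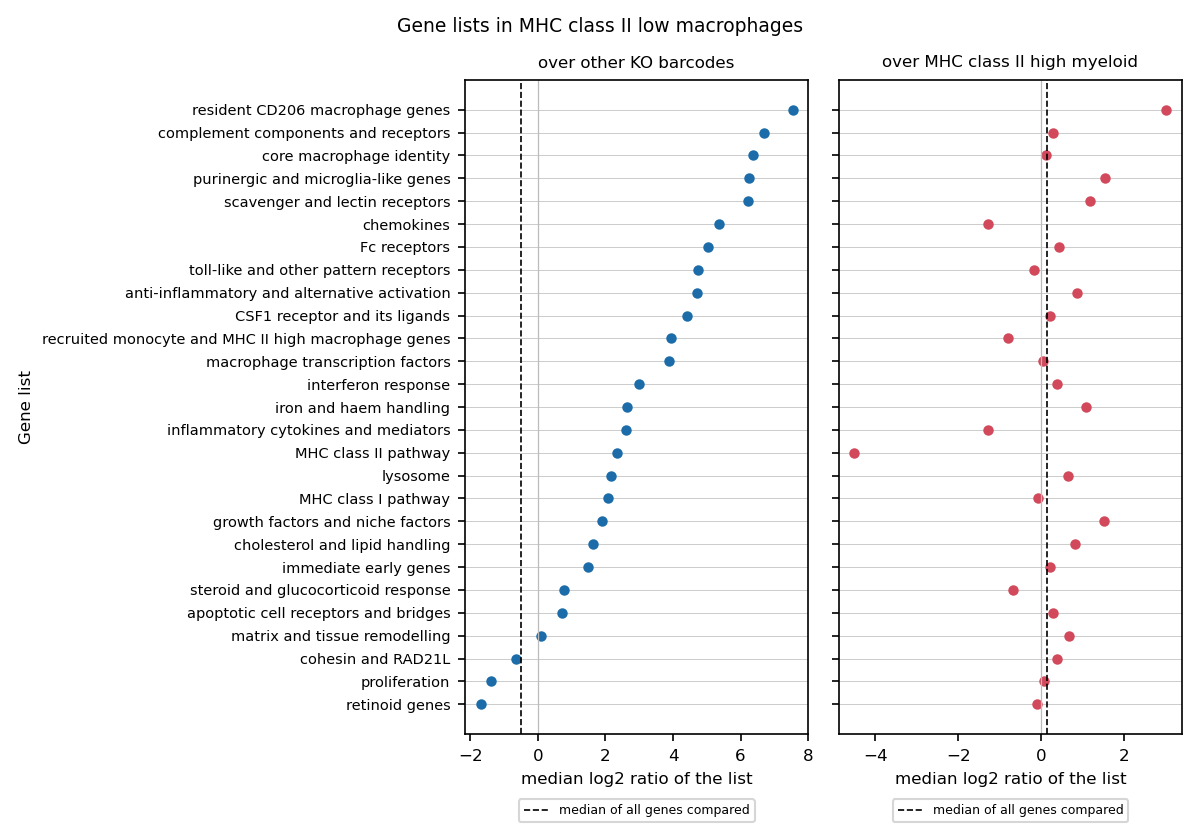
Points give the median log2 ratio of each of 27 gene lists (rows), for members over the other KO barcodes on the left and over MHC class II high barcodes on the right, with a dashed line at the median of all genes compared. The resident CD206 list leads both panels at 7.54 and 3.01, and the MHC class II, inflammatory and chemokine lists lie right of the line on the left and left of it on the right.

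Members held few UMIs of the genes for the ligands of the CSF1 receptor. Csf1r, a gene of the rule, had 2053 CPM in members (1965 to 2144) and 959 CPM in MHC class II high barcodes. Csf1 had 13 UMIs in members (13.2 CPM) and stood at 239 CPM in stromal, 151 CPM in Leydig and 74.6 CPM in myoid class barcodes. Il34, the other ligand of the receptor, had no UMI in members and stood at 52.9 CPM in myoid class barcodes. Igf1, a growth factor, had 602 CPM in members, 134 CPM in MHC class II high barcodes and 1456 CPM in stromal class barcodes. Tgfbr2 had 450.3 CPM in members and 7.94 CPM in the other KO barcodes.

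Transcription factors of the lineage were present in both myeloid groups at close levels, with a median log2 ratio of 0.04 over MHC class II high barcodes for the 11 compared. Maf was the exception, at 1055 CPM in members (992 to 1121) and 237 CPM in MHC class II high barcodes. Spic, a factor of iron-recycling macrophages, had 32 UMIs in members and 1 UMI in MHC class II high barcodes, too few to size the difference. Ciita, the activator of MHC class II genes, had 2 UMIs in members and 33 UMIs in MHC class II high barcodes, a log2 ratio of -6.39 (-9.50 to -4.43), and H2-DMb1, an MHC class II loading gene, had 21.3 CPM in members and 222 CPM. Neither gene was used by the rule, but the 2 groups were split by MHC class II genes, which Ciita activates. Ciita also passed the minimum of UMIs through the MHC class II high barcodes alone. Both differences are therefore a description. MHC class I genes stood at close levels, with B2m at 1786 CPM in members (1704 to 1871) and 1871 CPM in MHC class II high barcodes.

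Immediate early genes, which are known to respond to tissue dissociation, took a larger share of UMIs in both myeloid groups than in the other KO barcodes as a whole. For members the median log2 ratio of these genes over the other KO barcodes was 1.47. It was 0.88 against the non-myeloid somatic classes only, and 1.06 when each barcode weighed equally. As a list they took 2.34% of UMIs in members, 2.68% in MHC class II high barcodes and 0.770% in the other KO barcodes. Within members the share ran between 0 and 6.72% with a median of 2.15%, and their part in the levels of Tnf and the chemokines was not tested. Fos had 2982 CPM in members and 4299 CPM in MHC class II high barcodes, whereas Jun had 4360 CPM in members and 2206 CPM in MHC class II high barcodes.

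The limit of 1% MHC class II cuts a range, so members were divided by their MHC class II UMIs into 196 with none, 88 under 0.1%, 36 between 0.1 and 0.3% and 24 between 0.3 and 1%, and set beside the 95 barcodes at 1% or more. Median depth in these groups was 2672, 3117.5, 2418.5, 2240 and 1910 UMIs. Mrc1 had 3480, 3392, 3218, 2480 and 1015 CPM in that order. Folr2 had 467, 518, 454, 189.5 and 36.1 CPM, and Slc40a1 had 315, 345, 270.2, 172 and 10.3 CPM. The fourth Slc40a1 value came from 10 UMIs, and its interval (82.6 to 316.8 CPM) overlapped those of the first 3 groups. By these values Mrc1, Folr2 and Slc40a1 were close over the first 3 groups, lower in the fourth and lowest above the limit. Resident genes with fewer UMIs did not all share this order. Cd163 had 125, 93.3, 135, 172 and 10.3 CPM and was highest in the fourth group, from 10 UMIs there. Vsig4 had 75.1, 96.7, 12.3, 17.2 and 0 CPM and was already low in the third. Cd209f had 202, 148.5, 123, 0 and 56.7 CPM. Il1b had 19.7, 41.5, 295, 482 and 2866 CPM in the same order, and Mgl2, a galactose-binding lectin gene, had 53.6, 82.9, 221, 878.5 and 1680 CPM. Cd52, a leukocyte surface glycoprotein gene, had 41.1, 69.1, 258, 792 and 1438 CPM. Csf1r, at 2038, 2059, 2186, 1981 and 959 CPM, was lower only above the limit, and Tnf, at 384, 332, 467, 276 and 479 CPM, showed no order. By summed UMIs the 24 members of the fourth group lay between the other members and the MHC class II high barcodes for Mrc1, Folr2, Slc40a1, Il1b, Mgl2 and Cd52, but not for Cd163 or Cd209f. The Il1b value there came from 28 UMIs, and 92.0% of all member Il1b UMIs lay in 10 members. Of genes chosen after their values were seen, the Sertoli gene Cst12 (620 CPM, 434 to 858.5) and Mki67 (293 CPM, 171 to 469) were highest in the fourth group. The Leydig genes Star and Insl3 were highest in the first. Whether mixed barcodes shape these sums was not tested.

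**Figure D4:**
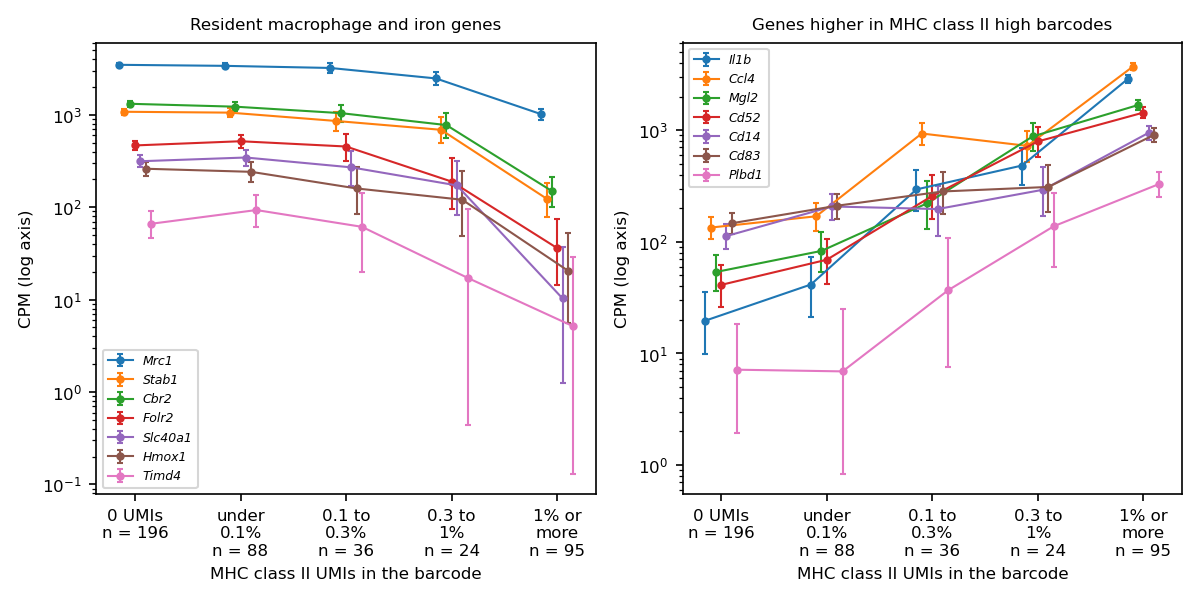
Points give the level (CPM, logarithmic axis) of genes in KO barcodes grouped by their share of MHC class II UMIs (x axis, low to high), and bars are exact Poisson 95% intervals that cover counting error only. The resident and iron genes plotted on the left are all lowest at 1% or more, and the genes on the right are all highest at 1% or more.

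The spread of each gene among members was measured without a test. Variance over mean after allowing for depth, which is 1 when counting error and depth account for the spread, had a median of 1.08 over the 3636 genes with at least 50 UMIs, and 144 of these genes reached 2. For genes with few UMIs a low value does not show that members were alike, because counting error dominates there. Malat1 (29.3) and Apoe (17.9) led and were spread over nearly all members. Il1b followed at 15.3, with its 75 UMIs in 16 members and 92.0% of them in 10. Spp1, the osteopontin gene, had all of its 86 UMIs in 6 members, 54.7% of them in 1. Ccl6 had 93 UMIs in 21 members, 51.6% of them in 1. The chemokine genes Cxcl2 and Ccl4 had 46.4% and 50.8% of their UMIs in 10 members. Iigp1, an interferon-inducible GTPase, had 174 UMIs in 80 members with 28.2% in 1, and only 1 UMI in MHC class II high barcodes, a log2 ratio of 5.09 (2.60 to 10.4). The other genes among the 15 largest were Gstm1, Fabp3, Ptgds, Cyp17a1, Lcn2, Mgl2 and Neat1.

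**Figure D5:**
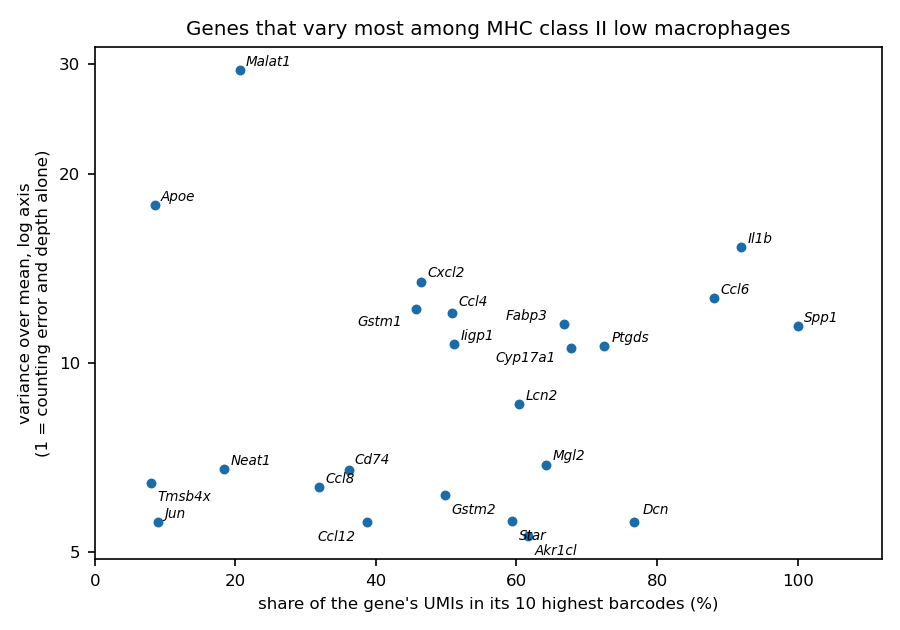
Points are the genes with the largest variance over mean among the 344 members (y axis, logarithmic), against the share of each gene's UMIs in its 10 highest barcodes (x axis, %). Il1b, Ccl6 and Spp1 at the right rest on a few barcodes, and Malat1, Apoe, Tmsb4x and Jun at the left are spread over the group.

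Markers of the other testis cells were low in members but not absent, at levels given here beside the genes they touch. The 6 Leydig markers took 0.125% of member UMIs, against 2.06% in Leydig class barcodes, and all 6 were detected; without the 5 members past the Leydig marker rule they took 0.0579%. The 8 Sertoli markers took 0.106% of member UMIs, against 0.873% in Sertoli class barcodes. Of the 415 UMIs of Cyp17a1, a steroid enzyme gene, 67.7% lay in 10 members. It was found in 36.1% of members and 31.8% of Sertoli class barcodes, which should lack it, at median depths of 2712.5 and 5014.5 UMIs, and in 21.1% and 10.1% after thinning. In all, 17 members passed the marker rule of another class and had a median of 6145 UMIs, against 2665 in the rest. The doublet caller Scrublet marked 15 members (4.36%), no MHC class II high barcode and 152 KO barcodes in all (2.37%). Members that Scrublet marked or that passed another rule numbered 23, and they were kept; leaving out either set left the counts of the comparisons within 1.5 times.

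Steroid and glucocorticoid response genes showed no common direction against MHC class II high barcodes, with 3 of 9 at least 2-fold higher and 2 at least 2-fold lower. Of all genes compared 10.6% were higher and 5.02% lower by that much. Nr3c1, the glucocorticoid receptor, had 199 CPM in members and 82.5 CPM in MHC class II high barcodes. Tsc22d3, a gene it is known to induce, had 171 CPM in members and 46.4 CPM. Ptgs2, which makes prostaglandins, had 6 UMIs in members and 44 UMIs in MHC class II high barcodes, a log2 ratio of -5.22. Hpgds, a prostaglandin D synthase, had 369 CPM in members and 206 CPM in MHC class II high barcodes.

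The WT library gave no match for the rule. None of 5407 WT barcodes with at least 500 genes met it, which allows a share of up to 0.0555% by a limit of 3 counts (the exact Clopper-Pearson upper bound is 0.0682%), and 6 WT barcodes (0.111%, 0.0407 to 0.241%) met the MHC class II high rule. The 6 macrophage genes summed to 667 CPM in KO and 12.7 CPM in WT over all barcodes. C1qb had 0.867 UMIs per C1qa UMI in KO and 13.4 in WT, where it gave 322 of the 421 UMIs of the 6 genes. Without C1qb the sum was 526 CPM in KO and 2.99 CPM in WT. Leydig markers stood at 4173 CPM in KO and 45.8 CPM in WT, and macrophage UMIs per 100 Leydig UMIs were 16.0 in KO and 27.8 in WT, or 12.6 in KO and 6.53 in WT without C1qb. That ratio changed order with 1 gene. CPM over all barcodes also depends on which other cells each library holds. Fewer macrophages, less RNA per cell, a different mix of other cells and a difference in what the dissociation released cannot be told apart with 1 library per genotype.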

How the data were processed

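The deposited matrices hold UMI counts per gene and barcode for 41459 genes named by symbol, made by the authors per the file headers, which name Cell Ranger 6.1.2. The submitters' processing notes also name Seurat 4.3 and GRCm39. The step that separated cells from empty droplets is not given in the sources used here. Whether counting could split near-identical genes is not given either, so values of the Cd209, Ms4a and Ccl families may be shared among their members.

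UMIs were summed over each group of barcodes and scaled to CPM with exact Poisson 95% intervals, and shares have exact Clopper-Pearson intervals. A gene was compared with the other KO barcodes at 20 or more UMIs in members, or expected there from the others, and with MHC class II high barcodes at 20 or more UMIs in the 2 groups together after scaling to the smaller sum, which a gene can reach through 1 group alone. A sum of 0 was set to 3 counts. Intervals of log2 ratios over MHC class II high barcodes are exact conditional binomial. Genes at least 4-fold or 2-fold apart were counted without a test, since 1 library per genotype gives no replicates. The steps were tested on simulated counts, where counting error alone put some unchanged genes past the 2-fold mark, so genes were ranked only at 50 or more UMIs.

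Members and the 27 lists (397 genes, all found) were chosen with earlier results of these data known. Named were the rule genes, the 20 highest in CPM, the 25 largest ratios over other KO barcodes, the 12 largest in each direction against MHC class II high barcodes, the 15 with the largest variance over mean, and for each list the highest, the most different and those at 0. Results for some genes are not reported here. Doublets were kept, and Scrublet in Scanpy 1.11.5 (expected rate 5%) served as an alternative only. Alternatives changed the limits of the rule, the gene minimum, mitochondrial and doublet filters, free RNA, scale and weighting. Python 3.11.15, numpy 2.4.6, scipy 1.17.1 and pandas 2.3.3 were used.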

Additional observations from a re-analysis of the deposited data

Results flagged for a closer look

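Beyond the barcodes used in the report, 709 KO barcodes had fewer than 500 genes. Of these, 13 met the rest of the rule for MHC class II low macrophages, with 371 to 485 genes each, and 2 more met it with 1% or more MHC class II. The 13 held 136 UMIs of the 6 macrophage genes and 12 Mrc1 UMIs among 8573 in all. Over all 709 barcodes, these 15 included, the macrophage genes took 0.0558% of UMIs. None of 8 WT barcodes under 500 genes met the rule. What flagged them was signal in barcodes that no comparison used, and whether they are poorly captured cells or free RNA was not tested.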

How the results depend on the processing

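No paired analysis was possible because there is 1 library per genotype. Of 88 recomputed values for the share of barcodes, the counts of genes and the number of lists with a median log2 ratio of at least 2 (18), 79 stayed close to the value reported and 9 moved. The share of members was 6.07% of KO barcodes with at least 1000 genes. The count of genes at least 4-fold lower than in the other KO barcodes (613) was 1176 with 10% of the library profile taken off as free RNA, 270 with a minimum of 50 UMIs, 1230 with a minimum of 5 UMIs and 210 with the median gene set to no difference. Against MHC class II high barcodes, the count at least 2-fold higher (368) was 116 with a minimum of 50 UMIs and 1331 with 5, and the count at least 2-fold lower (175) was 76 and 680. The count at least 4-fold higher than in the other KO barcodes (752) moved by less than 1.5 times under every alternative listed. Of 432 list medians under the alternatives, 417 stayed inside the interval of the median, 14 left it and 1 changed sign: proliferation was 0.95 against the non-myeloid somatic classes only. The order of macrophage to Leydig UMIs between KO and WT changed without C1qb, a choice made after seeing the data. Depth limits genes with few UMIs in the 95 MHC class II high barcodes, whose counts of 1 to 3 leave wide intervals.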

Other observations

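Proliferation genes were lower in members than in the other KO barcodes, with a median log2 ratio of -1.38 over 16 genes compared, none at least 4-fold higher and 4 at least 4-fold lower. Of all genes compared 8.31% were at least 4-fold higher and 6.77% at least 4-fold lower. Mki67, a marker of cycling cells, had 77.9 CPM in members, 51.6 CPM in MHC class II high barcodes and 280 CPM in the other KO barcodes, and germ class barcodes had 778 CPM. Against the non-myeloid somatic classes alone the median log2 ratio of the list was 0.95; that comparison leaves out the germ class, the MHC class II high barcodes and the 1657 unassigned barcodes. In a split chosen after the values were seen, 13 members held 3 or more UMIs of the mitotic genes Mki67, Top2a, Cdk1, Ccnb1, Ccna2, Birc5 and Ube2c. They had a median of 5220 UMIs and a median of 0.948% macrophage UMIs, against 2669 UMIs and 1.66% in the other 331 members. Germ cell markers took 0.158% of the summed UMIs of the 13 and 0.0356% of those of the other 331. Scrublet marked 4 of the 13, 2 passed the germ cell marker rule and 8 did neither. Those 8 had a median of 1.03% macrophage UMIs and held 30 Mki67 UMIs in sum. Whether they are dividing macrophages or mixed barcodes was not tested.

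Retinoid genes were the list with the lowest median, -1.69 over 7 genes compared with the other KO barcodes, and Stra6, Crabp2, Rarb and Cyp26a1 had no UMI in members. Rxra, a nuclear receptor partner, had 59.7 CPM in members and 31.5 CPM in the others, and Aldh1a1, which makes retinoic acid, had 275 CPM in members and 889 CPM in the others. The cohesin list, which holds general and meiotic genes, had a median log2 ratio of -0.65 over 12 genes compared with the other KO barcodes. Of these 2, the meiotic genes Smc1b and Stag3, were at least 4-fold lower in members, where 6.77% of all genes compared were. The somatic subunit genes Rad21, Smc1a and Smc3 had 127.5, 149.8 and 165 CPM in members. The meiotic genes Rad21l, Rec8 and Stag3 had 2, 1 and 15 UMIs in members.

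C1qb was found in 260 WT barcodes with at most 9 UMIs in any of them, and 33 of its 322 WT UMIs lay in the 6 MHC class II high WT barcodes. In KO it was found in 627 barcodes with up to 35 UMIs, of which 518 UMIs lay in MHC class II high barcodes.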
